A study of Mus musculus with 13 samples.

Results

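The mitochondrial ribosomal protein genes, those whose symbols start with Mrpl or Mrps and a digit, were followed through P14 CD8+ T cells of 2 genotypes. The array has 156 probe sets that name such a gene and no other, and they represent 76 genes among the 18193 genes measured. Each gene was read from its brightest probe set (by the mean of all 13 arrays), which meant a choice for 42 genes and a single probe set for 34. P14 cells express the T cell receptor of a transgene, and most CD8+ T cells of such a mouse thus recognise the same antigen. All mice were on the C57Bl/6 background, and the cells were purified by magnetic removal of other cells. The groups were wild-type naive cells at day 0 (2 arrays), BATF-/- naive cells at day 0 (3 arrays), wild-type cells after 3 days in culture (4 arrays) and BATF-/- cells after 3 days in culture (4 arrays). In both genotypes the cultured cells had received plate-bound antibodies to CD3 and CD28 together with 100 U/ml recombinant human IL-2. BATF belongs to the AP-1 transcription factors and acts in stimulated lymphocytes. Whether arrays of 1 group came from separate mice or cultures is not stated in the labels, so p-values measure the spread between arrays, which may be technical.

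The mitochondrial ribosome translates the few messages of mitochondrial DNA, which encode core subunits of the respiratory chain and of ATP synthase. Its RNA comes from mitochondrial DNA, while all its proteins are encoded in the nucleus, made in the cytosol and imported. Some of these proteins have counterparts in the bacterial ribosome and the others were added during the evolution of mitochondria. Symbols with Mrps are meant for the small subunit, which reads the message, and those with Mrpl for the large subunit, which joins the amino acids. Of the 76 genes, 26 encode small-subunit proteins and 49 encode large-subunit proteins. The large-subunit count includes Mrps30 and Mrps18a, whose symbols were given before their place was known. Mrps36 is now assigned to the 2-oxoglutarate dehydrogenase complex and was counted in neither subunit.

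All values are log2 intensities and all differences are on the log2 scale, with the standard error (SE) of the linear model fitted with limma. A gene passed when its two-sided adjusted p (Benjamini-Hochberg over all 18193 genes) was below 0.05, and rose and fell are used of genes that passed. Batf read 9.19 and 9.36 in naive wild-type cells and 8.63, 8.80, 8.83 and 9.19 in the wild-type day 3 arrays. It read 5.60, 6.06 and 5.94 in the BATF-/- naive arrays and 6.77, 5.56, 5.61 and 6.00 in the BATF-/- day 3 arrays, below every wild-type array. None of the 76 genes had a mean in the lowest 40% of probe sets, below 4.35. The mean over the CD8 T cell markers lay between 11.66 and 12.17 in naive arrays and between 11.81 and 11.97 in day 3 arrays. Means over the B cell markers were 7.05 to 8.19 in naive and 4.94 to 5.18 in day 3 arrays, and 4 of the 5 markers measured fell in each genotype. Natural killer cell markers averaged 5.66 to 5.76 in wild-type naive, 6.58 to 7.42 in BATF-/- naive and 3.88 to 4.21 in day 3 arrays, and all 5 fell in each genotype. Neutrophil markers averaged 5.29 to 9.61 in naive and 4.10 to 4.25 in day 3 arrays, with 3 of 6 lower in wild type and 5 of 6 lower in BATF-/-. The highest neutrophil value belonged to BATF-/- naive replicate 1. The part of these cells in the differences below was not tested, and in bulk RNA fewer cells of a type and less RNA per cell cannot be told apart.

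Stimulation moved the mitochondrial ribosomal protein genes apart rather than together. In wild-type cells 28 of 76 rose from naive to day 3, 18 fell and 30 did not pass. Over all genes 22.4% rose and 23% fell, against 36.8% and 23.7% of these genes. The differences ran from -1.42 for Mrpl52 to 1.32 for Mrpl45, with a median of 0.07 beside 0.05 over all genes. In BATF-/- cells 36 of 76 rose, 15 fell and 25 did not pass. Over all genes 23.8% rose and 23.2% fell in BATF-/- cells, against 47.4% and 19.7% of these genes, and the median was 0.15 beside 0.05. Most differences were small, and 62 of the 76 genes in wild type and 65 in BATF-/- stayed below 1.5-fold. The background of all genes holds many dim probe sets, and after removal of the lowest 40% of probe sets 61.5% of genes passed in wild type, beside 50 of the 76. The same removal gave 62.9% of genes in BATF-/- cells, beside 54 of the 76. Without wild-type naive replicate 1 the wild-type counts were 18 higher and 17 lower, so the larger number of increases in wild type rests on that array.

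**Figure D1:**
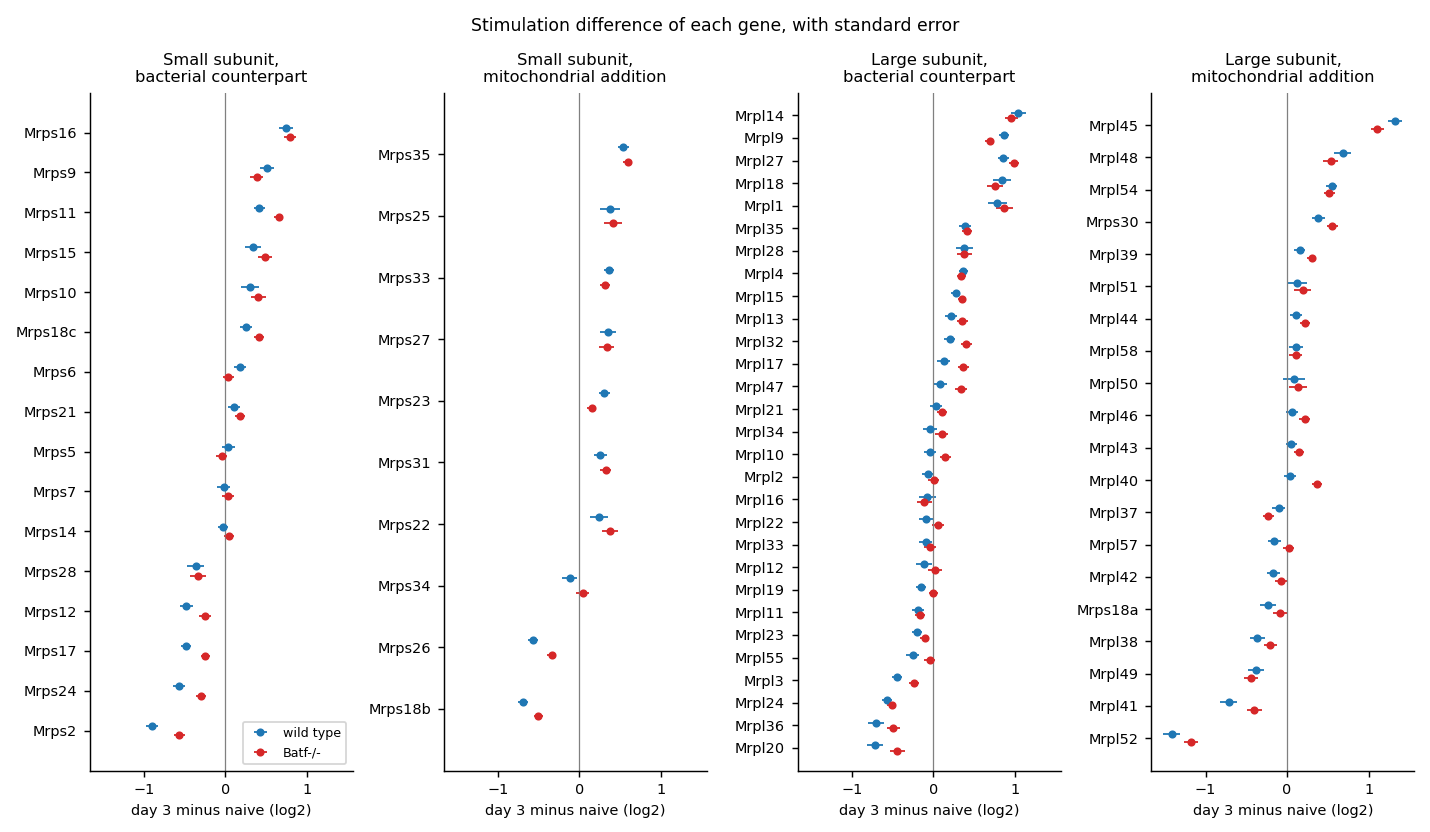
Difference between day 3 and naive cells (log2, x axis) for 75 of the 76 genes, one row per gene, in 4 panels by subunit and origin, with wild type in blue, BATF-/- in red and bars of 1 standard error from the fit. Mrps36 is not drawn. Each panel holds genes on both sides of 0, from -1.42 for Mrpl52 to 1.32 for Mrpl45 in wild type, and the blue and red points of a gene lie near each other.

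The genes that moved were largely shared between the genotypes. All 28 genes that rose in wild type also rose in BATF-/- cells, where they made up 77.8% of the genes that rose. Of those that fell, 14 fell in both genotypes, which is 77.8% of the wild-type and 93.3% of the BATF-/- decreases. No gene rose in 1 genotype and fell in the other, and 21 passed in neither. Across the 76 genes the differences of both genotypes, which share no arrays, had a Pearson correlation of 0.968, given as a description because genes are not independent replicates. The matching shares and correlation over all genes were not computed, so the sharing is not shown to be particular to these genes. Over all genes 0.649% passed the test that the stimulation difference depends on genotype. The 8 genes that rose in BATF-/- cells and did not pass in wild type were Mrpl17, Mrpl39, Mrpl40, Mrpl44, Mrpl46, Mrpl47, Mrps21 and Mrps22. Their wild-type differences lay between 0.03 for Mrpl40 and 0.24 for Mrps22, and the difference between genotypes is tested below. The increases of Mrpl44 and Mrpl46 were lost without BATF-/- naive replicate 2, and that of Mrps21 in 5 of the 13 fits that leave out 1 array. Those of Mrpl17 and Mrpl47 did not pass when all probe sets of a gene were averaged.

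Mrpl45 showed the largest increase in both genotypes. Its product lies at the exit of the large subunit, where the new protein emerges, and holds the ribosome to the inner membrane. Mrpl45 measured 8.86 and 9.06 in naive wild-type cells, 9.26, 8.94 and 9.03 in naive BATF-/- cells, 10.30, 10.30, 10.32 and 10.21 in wild-type cells at day 3 and 10.25, 10.13, 10.13 and 10.21 in BATF-/- cells at day 3. Every day 3 array lay above every naive array. The difference was 1.32 ± 0.09 (SE; adjusted p = 8.01e-08) in wild type, a 2.51-fold level, and 1.11 ± 0.08 (SE; adjusted p = 1.07e-07) in BATF-/- cells. In wild type Mrpl14 came next, the counterpart of bacterial L14 at the face between the subunits. Mrpl14 measured 8.07 and 8.24 in naive wild-type cells, 8.42, 8.15 and 8.36 in naive BATF-/- cells, 9.14, 9.21, 9.26 and 9.18 in wild-type cells at day 3 and 9.40, 9.14, 9.24 and 9.28 in BATF-/- cells at day 3. Here too the states did not overlap, with differences of 1.04 ± 0.09 (SE; adjusted p = 7.30e-07) in wild type and 0.96 ± 0.08 (SE; adjusted p = 4.72e-07) in BATF-/- cells. In wild type these were the only genes of the 76 that rose by at least 2-fold.

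Several further large increases belonged to proteins with bacterial counterparts. Mrpl27, the counterpart of a bacterial protein that reaches toward the catalytic centre, rose by 0.86 ± 0.07 (SE; adjusted p = 3.08e-07) in wild type and 0.99 ± 0.06 (SE; adjusted p = 2.31e-08) in BATF-/- cells. Mrpl9, the counterpart of bacterial L9, rose by 0.86 ± 0.06 (SE; adjusted p = 1.42e-07) and 0.69 ± 0.06 (SE; adjusted p = 2.75e-07) in the same order. Mrpl18, which binds 5S RNA in bacteria, rose by 0.85 ± 0.11 (SE; adjusted p = 3.06e-05) and 0.76 ± 0.10 (SE; adjusted p = 2.57e-05). For all 3 genes every day 3 array lay above every naive array of its genotype. Mrpl1, of the mobile L1 stalk, rose by 0.79 in wild type and 0.87 in BATF-/- cells. Mrps16 was the small-subunit gene with the largest increase. Mrps16 measured 10.83 and 10.84 in naive wild-type cells, 10.81, 10.88 and 11.08 in naive BATF-/- cells, 11.47, 11.57, 11.62 and 11.66 in wild-type cells at day 3 and 11.78, 11.67, 11.67 and 11.73 in BATF-/- cells at day 3. All day 3 arrays lay above all naive arrays, and the difference was 0.75 ± 0.08 (SE; adjusted p = 5.92e-06) in wild type and 0.79 ± 0.07 (SE; adjusted p = 1.03e-06) in BATF-/- cells.

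**Figure D2:**
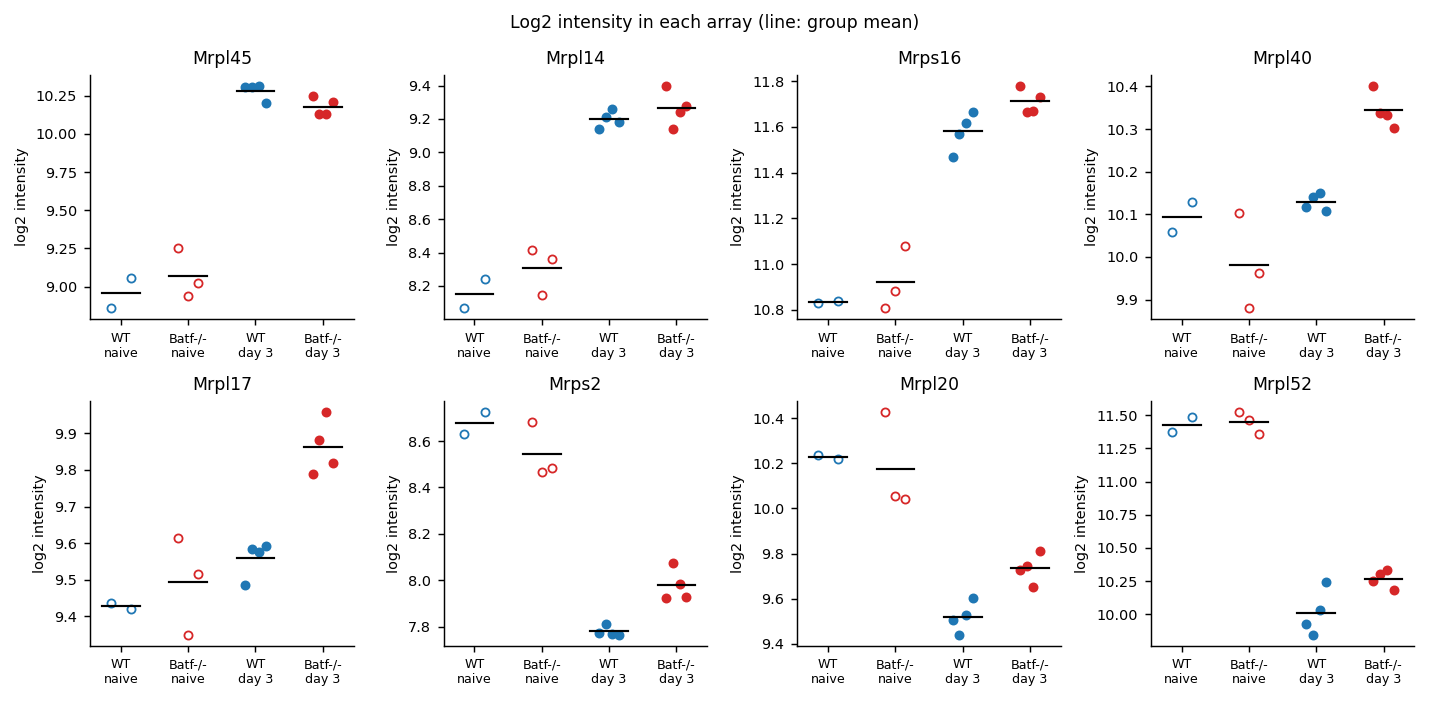
Log2 intensity (y axis, a separate scale in each panel) of 8 genes in each of the 13 arrays, by group on the x axis; open circles are naive and filled circles day 3 arrays, blue is wild type, red is BATF-/-, and lines are group means. Mrpl45, Mrpl14 and Mrps16 have all day 3 arrays above all naive arrays, Mrps2, Mrpl20 and Mrpl52 have them below, and Mrpl17 and Mrpl40 have the 4 BATF-/- day 3 arrays above the 4 wild-type ones.

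Mrpl52 went furthest the other way. It encodes a large-subunit protein without a bacterial counterpart. Mrpl52 measured 11.37 and 11.49 in naive wild-type cells, 11.52, 11.46 and 11.36 in naive BATF-/- cells, 9.92, 9.85, 10.03 and 10.25 in wild-type cells at day 3 and 10.25, 10.31, 10.33 and 10.19 in BATF-/- cells at day 3. No day 3 array reached the lowest naive array. Mrpl52 fell by 1.42 ± 0.10 in wild type (SE; adjusted p = 1.12e-07), to a level 2.67-fold lower, and by 1.18 ± 0.09 in BATF-/- cells (adjusted p = 1.56e-07). It was the only one of the 76 genes that fell by at least 2-fold in either genotype.

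Mrps2 had the next largest decrease. It is the counterpart of bacterial S2, a protein on the back of the small subunit. Mrps2 measured 8.63 and 8.73 in naive wild-type cells, 8.68, 8.47 and 8.48 in naive BATF-/- cells, 7.77, 7.81, 7.77 and 7.77 in wild-type cells at day 3 and 7.93, 8.08, 7.98 and 7.93 in BATF-/- cells at day 3. The states did not overlap, and Mrps2 fell by 0.90 ± 0.08 in wild type (adjusted p = 4.88e-07) and by 0.57 ± 0.07 in BATF-/- cells (adjusted p = 9.31e-06). Mrpl20, the counterpart of an early binder of the large ribosomal RNA in bacteria, fell by 0.71 and 0.44 in wild type and BATF-/- cells. Mrpl36, the counterpart of bacterial L36, fell by 0.70 and 0.49, and Mrpl41, a mitochondrial addition, by 0.72 and 0.40. Adjusted p for these 3 genes was between 3.21e-05 for Mrpl36 in wild type and 0.00287 for Mrpl41 in BATF-/- cells. Mrpl24, next to the exit of the large subunit, fell by 0.57 and 0.51. The 14 genes that fell in both genotypes had a median of -0.57 in wild type and -0.42 in BATF-/- cells, and 13 of the 14 differences were smaller with BATF absent. Of the 28 that rose in both, 12 were smaller with BATF absent, and the medians were 0.39 in wild type and 0.45 in BATF-/- cells. For none of these genes did the difference between the genotypes in the response pass, as given below. The matching fractions over all genes were not computed.

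Upstream sequences of the gene that rose most, the gene that fell most and the gene that passed between genotypes at day 3 (Mrpl17, described below) are shown because the data contrast them. Each is the 250 bases before the annotated start, 5′ to 3′ along the gene, from RefSeq for GRCm38.p6. Capitals mark matches, on either strand, to GCGCANGCG (the NRF1 motif), CCGGAAG (the ETS motif) or GGGCGG (the GC box).
Mrpl45 (chr11:97315466-97315715, + strand): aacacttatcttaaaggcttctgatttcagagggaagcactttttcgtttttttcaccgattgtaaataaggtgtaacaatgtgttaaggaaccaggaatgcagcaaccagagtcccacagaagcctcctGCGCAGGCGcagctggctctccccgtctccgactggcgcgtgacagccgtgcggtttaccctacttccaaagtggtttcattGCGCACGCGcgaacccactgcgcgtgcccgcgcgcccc
Mrpl52 (chr14:54426659-54426908, + strand): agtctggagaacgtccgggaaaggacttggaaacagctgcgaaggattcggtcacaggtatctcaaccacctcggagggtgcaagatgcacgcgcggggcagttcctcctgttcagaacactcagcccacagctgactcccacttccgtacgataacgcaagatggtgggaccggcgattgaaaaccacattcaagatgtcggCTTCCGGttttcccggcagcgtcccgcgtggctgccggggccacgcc
Mrpl17 (chr7:105811088-105811337, - strand): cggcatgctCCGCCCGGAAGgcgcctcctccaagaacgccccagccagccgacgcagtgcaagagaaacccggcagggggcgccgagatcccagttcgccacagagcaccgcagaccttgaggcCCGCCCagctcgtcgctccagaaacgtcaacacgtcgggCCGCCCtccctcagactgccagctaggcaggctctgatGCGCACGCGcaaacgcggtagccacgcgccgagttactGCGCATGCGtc
The Mrpl45 sequence holds 2 NRF1 matches and no ETS match, and the Mrpl52 sequence holds 1 ETS match and no NRF1 match. The Mrpl17 sequence holds 2 NRF1 matches, 1 ETS match and 3 GC box matches, of which 1 overlaps the ETS match. A match describes the letters and does not show that a factor binds.

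Neither subunit moved as a unit. Of the 26 small-subunit genes 12 rose, 7 fell and 7 did not pass in wild type, and 14 rose, 7 fell and 5 did not pass in BATF-/- cells. Of the 49 large-subunit genes 15 rose, 11 fell and 23 did not pass in wild type, and 21, 8 and 20 in BATF-/- cells. In wild type these were 46.2% higher and 26.9% lower for the small subunit, and 30.6% and 22.4% for the large. Over all genes 22.4% rose and 23% fell in wild type, and 23.8% and 23.2% in BATF-/- cells. Without wild-type naive replicate 1 the small-subunit increases in wild type were 6, and without wild-type naive replicate 2 the large-subunit decreases were 7. By origin, 17 of the 45 genes with a bacterial counterpart rose and 12 fell in wild type, beside 10 and 6 of the 30 mitochondrial additions. The bacterial counterparts had 11 increases without wild-type naive replicate 1 and 8 decreases without replicate 2. The 10 mitochondrial additions of the small subunit had 6 increases and 2 decreases in wild type, and 7 and 2 in BATF-/- cells. Those increases in wild type were 3 without wild-type naive replicate 1. Among them Mrps35 rose by 0.54 and Mrps25 by 0.38, while Mrps26 fell by 0.57 and Mrps18b by 0.70 in wild type. The increase of Mrps25 was lost without either wild-type naive array. The 20 mitochondrial additions of the large subunit had 4 increases and 4 decreases in wild type, 20% each. The increases were Mrpl45, Mrpl48 (0.68), Mrpl54 (0.55) and Mrps30 (0.39), and the decreases were Mrpl52, Mrpl41, Mrpl49 and Mrpl38 (-0.37), the last of which was lost without wild-type naive replicate 2.

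Proteins that sit next to each other in the ribosome also split. At the exit of the large subunit Mrpl45 rose in wild type, Mrpl24 and Mrpl23 fell, and Mrpl22 and Mrpl47 did not pass. Mrpl23 fell by 0.20 ± 0.06 (adjusted p = 0.0173), and without either wild-type naive array it did not pass. Of the 4 measured genes of the stalk that receives the translation factors, Mrpl54 rose and Mrpl11 fell by 0.19 ± 0.07 (adjusted p = 0.048), a call that was lost in 10 of the 13 fits that leave out 1 array. Mrpl10 and Mrpl12 did not pass, at -0.04 and -0.11. In the central protuberance, the knob on top of the large subunit, Mrpl18 and Mrpl48 rose in wild type, Mrpl38 fell, and Mrpl40 and Mrpl46 did not pass. In BATF-/- cells 4 of these 5 rose, all but Mrpl38, which was at -0.21 (adjusted p = 0.0543).

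The 3 mammalian relatives of bacterial S18 took different courses. Mrps18c, the small-subunit form at the bacterial position, read 10.67 and 10.74 in wild-type naive and 10.89, 10.89, 11.03 and 11.03 in wild-type day 3 arrays, and rose by 0.25 ± 0.07 (SE; adjusted p = 0.00856). Mrps18b, which sits elsewhere on the small subunit, read 8.93 and 8.91 and then 8.22, 8.19, 8.22 and 8.26, and fell by 0.70 ± 0.06 (adjusted p = 6.87e-07). Mrps18a, which belongs to the large subunit, read 9.03 and 9.11 and then 8.89, 8.87, 8.88 and 8.69, a difference of -0.23 ± 0.09 (SE; adjusted p = 0.0588) that did not pass. In BATF-/- cells the differences of Mrps18c, Mrps18b and Mrps18a were 0.41, -0.50 and -0.09, and again Mrps18c rose, Mrps18b fell and Mrps18a did not pass. Leaving out 1 array ended the wild-type increase of Mrps18c in 1 of 13 fits.

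Other decreases included parts of the decoding site and of the catalytic region. Mrps12, the counterpart of the bacterial decoding protein S12, fell by 0.48 in wild type and 0.25 in BATF-/- cells, and Mrps17 fell by 0.48 and 0.25. Mrps24, the counterpart of bacterial S3 at the entry of the message, fell by 0.57 and 0.30. Mrpl3, close to the catalytic centre, fell by 0.44 and 0.23. Mrps28, the counterpart of bacterial S1, fell by 0.37 and 0.34, and in wild type did not pass without naive replicate 2. At the other end, some genes had differences near 0 in wild type. Mrps7, of the head of the small subunit, read 9.30 and 9.28 in wild-type naive and 9.17, 9.26, 9.35 and 9.28 in wild-type day 3 arrays, a difference of -0.02 ± 0.08 (adjusted p = 0.855). Mrps14 was at -0.03, Mrps5 at 0.03 and Mrpl21 at 0.03 in wild type, and none of them passed. These values depend on the probe set. Mrps14 passed in wild type when its probe sets were averaged, and probe sets of Mrpl21 passed in opposite directions in BATF-/- cells. Mrps36, the dehydrogenase component, rose by 0.41 in wild type and 0.64 in BATF-/- cells, the first of which was lost without wild-type naive replicate 1.

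Probe sets of a gene did not always move together. Of the 80 probe sets not used, 22 had a mean of at least 8, and 19 of these had the sign of the used probe set in wild type. Among the 58 dimmer ones 29 had that sign. For 7 genes, Mrpl1, Mrpl15, Mrpl21, Mrpl47, Mrpl48, Mrpl49 and Mrps23, 2 probe sets passed in opposite directions in at least 1 genotype. In wild type the probe sets of Mrpl15 ran from -1.01 to 0.27 and those of Mrpl48 from -0.39 to 0.68. Those of Mrpl49 ran from -0.38 to 0.30, and those of Mrps23 from -0.27 to 0.31. In BATF-/- cells the probe sets that passed ran from -0.32 to 0.87 for Mrpl1 and from -0.79 to 0.42 for Mrpl15. They ran from -0.55 to 0.43 for Mrpl21, from -0.31 to 0.34 for Mrpl47 and from -0.45 to 0.36 for Mrpl49. The direction given for these genes is that of the brightest probe set.

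At day 3 the BATF-/- cells stood slightly above wild type over most of these genes, with few single genes past the test. The difference was positive for 67 of 76 genes and negative for 9, beside 55.5% positive over all genes, with a median of 0.10 beside 0.01. Of the 76 genes 1 passed, Mrpl17, beside 1.37% of all genes. The BATF-/- arrays lay entirely above the wild-type arrays for 30 of the 76 genes, beside 7.44% of all genes, and entirely below for 1, Mrpl9, beside 5.34%. An unadjusted p below 0.05 was reached by 18 (23.7%), beside 12.6% of all genes. The mean over the 76 genes was 9.51, 9.52, 9.57 and 9.57 in the wild-type day 3 arrays and 9.65, 9.62, 9.64 and 9.62 in the BATF-/- day 3 arrays, so the genotypes did not overlap. The means of the 43 cytosolic ribosomal protein genes, a list that holds Rpl39l, did not overlap either, with 12.03 to 12.04 in wild type and 12.07 to 12.09 in BATF-/- day 3 arrays. Their median difference was 0.01. In the list of mitochondrial ribosome assembly and RNA modification genes, described below, the median was 0.09 and 16 of 24 differences were positive. The other mitochondrial lists had medians between 0.004 and 0.03. The 76 genes had a median level of 9.61, beside 5.98 over all genes. Without the lowest 40% of probe sets the median difference over all genes was 0.009. The 95% intervals of the single genes reached from -0.26 for Mrpl45 to 0.44 for Mrpl17, so that differences above 1.36-fold lie outside all 76 intervals.

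Mrpl17 is the counterpart of bacterial L17. Mrpl17 measured 9.44 and 9.42 in naive wild-type cells, 9.61, 9.35 and 9.51 in naive BATF-/- cells, 9.49, 9.58, 9.57 and 9.59 in wild-type cells at day 3 and 9.79, 9.88, 9.96 and 9.82 in BATF-/- cells at day 3. The 4 BATF-/- day 3 arrays lay above the other 9. The difference at day 3 was 0.30 ± 0.06 (SE; adjusted p = 0.0382), a 1.23-fold level. The call was kept in 3 of the 13 fits that leave out 1 array, and it was lost when all probe sets of a gene were averaged (adjusted p = 0.984) or the replicate number was a block. Both other probe sets of Mrpl17 were dim, with means of 4.86 and 4.51, and gave differences of -0.22 and -0.06.

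Mrpl40 and Mrpl23 came closest to the threshold after Mrpl17. Mrpl40, of the central protuberance, measured 10.06 and 10.13 in naive wild-type cells and 10.10, 9.88 and 9.96 in BATF-/- naive cells. At day 3 it measured 10.12, 10.14, 10.15 and 10.11 in wild type and 10.40, 10.34, 10.33 and 10.30 in BATF-/- cells, with no overlap. The difference at day 3 was 0.22 ± 0.06 (SE; adjusted p = 0.0943). Mrpl23 measured 10.34, 10.30, 10.42 and 10.37 in wild type and 10.58, 10.56, 10.59 and 10.53 in BATF-/- cells at day 3, again without overlap, a difference of 0.21 ± 0.05 (SE; adjusted p = 0.0742). The largest positive differences after Mrpl17 were those of Mrpl52 at 0.26 (adjusted p = 0.175) and Mrpl41 at 0.24 (adjusted p = 0.23), both genes that fell with stimulation. In both, wild-type day 3 replicate 4 was the highest wild-type array, and without it both passed and Mrpl17 did not. The most negative were Mrpl45 at -0.10, Mrpl9 at -0.10 and Mrps23 at -0.08, none of which passed.

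**Figure D3:**
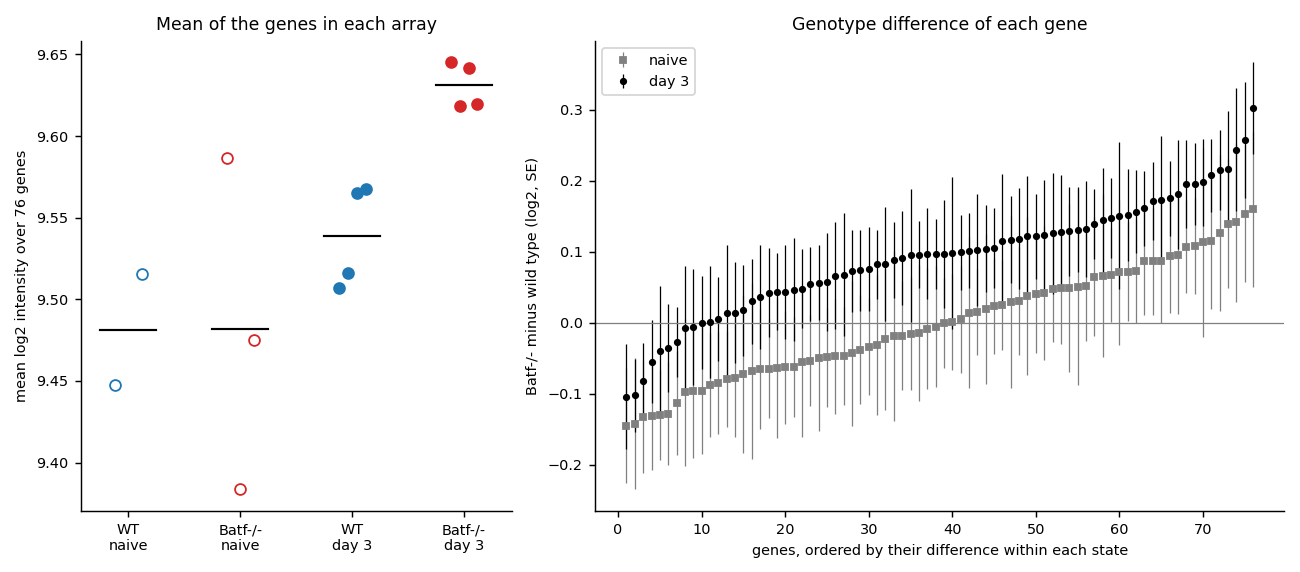
Left, mean log2 intensity over the 76 genes (y axis) in each array by group, with lines at group means; right, difference between BATF-/- and wild type (log2, with bars of 1 standard error) of each gene at day 3 (black) and in naive cells (grey squares), ordered separately from lowest to highest. The 4 BATF-/- day 3 arrays lie above the 4 wild-type day 3 arrays, the naive groups overlap, and 67 of 76 black points lie above 0.

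In naive cells no genotype difference passed. The differences were positive for 38 genes and negative for 38, beside 50% positive over all genes, with a median of -0.0025. None of the 76 passed, beside 1.08% of all genes, and 0 reached an unadjusted p below 0.05, beside 13.6%. Groups did not overlap for 9 genes, 4 with BATF-/- higher beside 11.8% of all genes and 5 with BATF-/- lower beside 12.7%. The 95% intervals ran from -0.34 for Mrpl47 to 0.40 for Mrps25. Naive BATF-/- arrays varied most, with a median SD over the genes of 0.12, beside 0.04 in wild-type naive, 0.06 in wild-type day 3 and 0.05 in BATF-/- day 3 arrays. Their means over the 76 genes were 9.59, 9.38 and 9.48, and replicate 1, the highest, was also the array with the highest neutrophil markers. The wild-type naive means were 9.45 and 9.52.

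The stimulation difference was not shown to depend on genotype for any of the 76 genes. None passed the test of that interaction with limma, beside 0.649% of all genes, and 11 (14.5%) had an unadjusted p below 0.05, beside 11.9% of all genes. The interaction was positive for 58 of the 76 genes, beside 9665 of all 18193, with a median of 0.10 beside 0.01. In the list of assembly and RNA modification genes, described below, 21 of 24 were positive, with a median of 0.10. The smallest adjusted p belonged to Mrpl40, whose stimulation difference was 0.03 in wild type and 0.36 in BATF-/- cells, an interaction of 0.33 ± 0.09 (SE; adjusted p = 0.155). Mrps2 followed with 0.33 ± 0.10 (SE; adjusted p = 0.187). Without BATF-/- naive replicate 1 both passed, with adjusted p of 0.0396 and 0.0456, and 1.48% of all genes passed. The 95% intervals ran from -0.48 for Mrpl45 to 0.62 for Mrpl41, so the arrays leave room for genotype effects of up to 1.54-fold on the response.

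The rest of the mitochondrial translation machinery was set beside these genes through lists. Of 5 measured mitochondrial ribosome proteins under other names, 3 rose in wild type and 1 fell, where 22.4% of all genes rose and 23% fell. Dap3, the small-subunit protein that binds GTP, rose by 0.71 ± 0.06 (SE; adjusted p = 7.43e-07), and Gadd45gip1, a large-subunit protein, by 0.68 ± 0.08 (SE; adjusted p = 1.29e-05). Ptcd3, a small-subunit protein with RNA-binding repeats, fell by 0.62 ± 0.08 (adjusted p = 1.48e-05). Of 12 translation factors and messenger-handling proteins 4 (33.3%) rose and 3 (25%) fell in wild type. Slirp rose by 0.58 while its partner Lrpprc, with which it keeps mitochondrial messages stable, fell by 0.44. Guf1, a back-translocation factor, rose by 0.53 and Mtif2, an initiation factor, fell by 0.41. The increase of Guf1 turned to -0.10 when its probe sets were averaged, and did not pass without either wild-type naive array.

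Of 24 assembly factors and enzymes that modify ribosomal RNA, 4 rose and 14 fell in wild type, with a median of -0.35, where 22.4% of all genes rose and 23% fell, and the counts were 4 and 14 in BATF-/- cells, with a median of -0.36. Fastkd2, needed for large-subunit assembly, fell by 1.25 ± 0.10 (adjusted p = 4.16e-07), and Trub2, a pseudouridine synthase, by 1.05 ± 0.08 (adjusted p = 3.26e-07). Mterf4 and Malsu1, both assembly factors of the large subunit, rose by 0.66 and 0.62. Among 16 mitochondrial tRNA synthetases 2 rose and 8 fell in wild type, with Ears2 falling by 1.26 and Yars2 by 0.86. The increases were Fars2 at 0.43 and Wars2 at 0.41, and both were lost without wild-type naive replicate 1. Of 10 genes that transcribe and copy mitochondrial DNA 1 rose and 7 fell in wild type, and 1 rose and 4 fell in BATF-/- cells. Polrmt, the mitochondrial RNA polymerase, fell by 1.16 and Tfb2m, its initiation factor, by 0.99, while Mgme1, a nuclease of mitochondrial DNA, rose by 0.69. The decreases of this list in wild type were 4 without wild-type naive replicate 2.

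Cytosolic ribosomal protein genes, 43 of which were measured, mostly did not pass. Their median level was 13.95, high in the measured range, beside 9.61 for the mitochondrial genes and 5.98 over all genes. Whether a limit of the signal at such levels made their differences smaller was not tested. In wild type 2 rose, 9 (20.9%) fell and 32 did not pass, with a median of -0.06, where 22.4% of all genes rose and 23% fell. Rpl12 fell by 1.97 and Rps4l fell by 1.96, and Rps27l rose by 0.53 and Rps2 by 0.19. Both increases were lost without wild-type naive replicate 1, and that of Rps2 also without replicate 2. Rpl12 and other ribosomal protein genes have near-identical copies in the genome, so their probe sets are uncertain. Rpl39l, a relative of Rpl39, was the only gene of these lists that passed between genotypes. It measured 5.76, 5.38, 5.71 and 5.75 in wild-type and 7.10, 6.87, 7.01 and 7.12 in BATF-/- day 3 arrays, a difference of 1.37 ± 0.19 (SE; adjusted p = 0.00366).

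**Figure D4:**
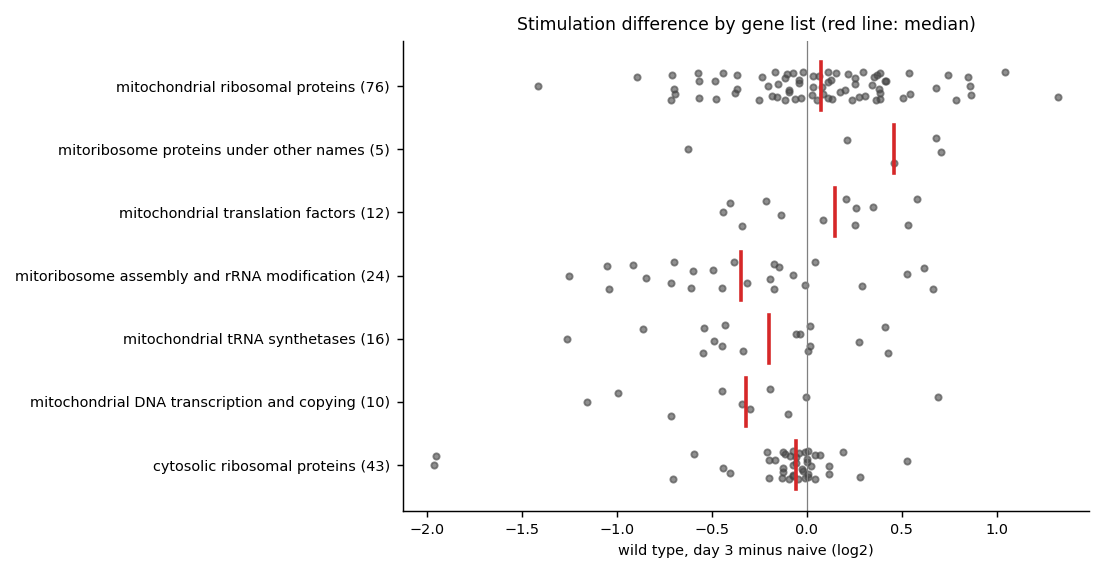
Wild-type difference between day 3 and naive cells (log2, x axis) of each gene in 7 lists, with the number of genes measured in brackets; points are genes, spread vertically only for sight, and red lines are medians. The mitochondrial ribosomal protein genes spread to both sides of 0 with a median of 0.07, and the median of the assembly and RNA modification list is -0.35.

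Upstream sequences of 67 of the 76 genes were in the RefSeq promoter table for GRCm38.p6, and the 250 bases before the start were searched on both strands. The NRF1 motif GCGCANGCG occurred in 12 of 67 (17.9%), beside 9.47% of the 14452 genes with a sequence. The ETS motif CCGGAAG occurred in 17 (25.4%), beside 11.8%, and the YY1 motif AAGATGGC in 4 (5.97%), beside 2.05%. The E-box CACGTG occurred in 5 (7.46%), beside 8.73%, CCAAT in 24 (35.8%), beside 39.4%, and the GC box GGGCGG in 33 (49.3%), beside 53.4%. NRF1 and the ETS protein GABP are known regulators of genes for mitochondrial proteins, and Myc binds E-boxes. Among the 23 of these genes that rose in wild type 3 held the NRF1 motif and 6 the ETS motif, among the 16 that fell 1 and 3, and among the 28 that did not pass 8 and 8. The median GC content was 58.4%, beside 57.6% over all genes.

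Many of these genes start back to back with a neighbour on the other strand. A divergent start within 1000 bases was found for 25 of the 67 genes (37.3%), beside 16.3% of the 14452. Neighbours were measured for all 25, which form 24 pairs because Mrpl46 and Mrps11 neighbour each other. The neighbour passed in wild type for 13 of the 25, beside 45.4% of all genes, and the gene itself also for 13. Both genes passed in 5 pairs, each time in the same direction. The share of such pairs among all divergent pairs was not computed, so whether neighbours move together was not tested. Mrpl18 and Tcp1, a subunit of the cytosolic chaperonin, rose by 0.85 and 0.85. Mrpl32 and Psma2, a proteasome subunit, rose by 0.20 and 0.20, and Mrpl27 and Eme1, a DNA repair nuclease subunit, by 0.86 and 1.89. Mrpl41 and Pnpla7 fell by 0.72 and 1.75, and Mrpl55 and 2610507I01Rik by 0.25 and 0.68. The call of Mrpl55 was lost without wild-type naive replicate 2, those of Mrpl32 and Psma2 without replicate 1, and that of Mrpl32 in 6 of 13 fits in all.

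In no other pair did both genes pass. Ska3, which joins chromosomes to the spindle, rose by 2.85 while Mrpl57, with a start 76 bases away, was at -0.16 and did not pass. Ncapd2, a condensin subunit, rose by 2.63 beside 0.13 for Mrpl51, which did not pass. Twnk, the helicase of mitochondrial DNA, fell by 0.45 beside 0.05 for Mrpl43. Mrps12 fell while Sars2, a mitochondrial tRNA synthetase gene, was at 0.27 and did not pass. Mrps11 rose by 0.42 in wild type, and Mrpl46, whose start lies 42 bases away, was at 0.06 and did not pass. In BATF-/- cells Mrps11 rose by 0.65 and Mrpl46 by 0.21.

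**Figure D5:**
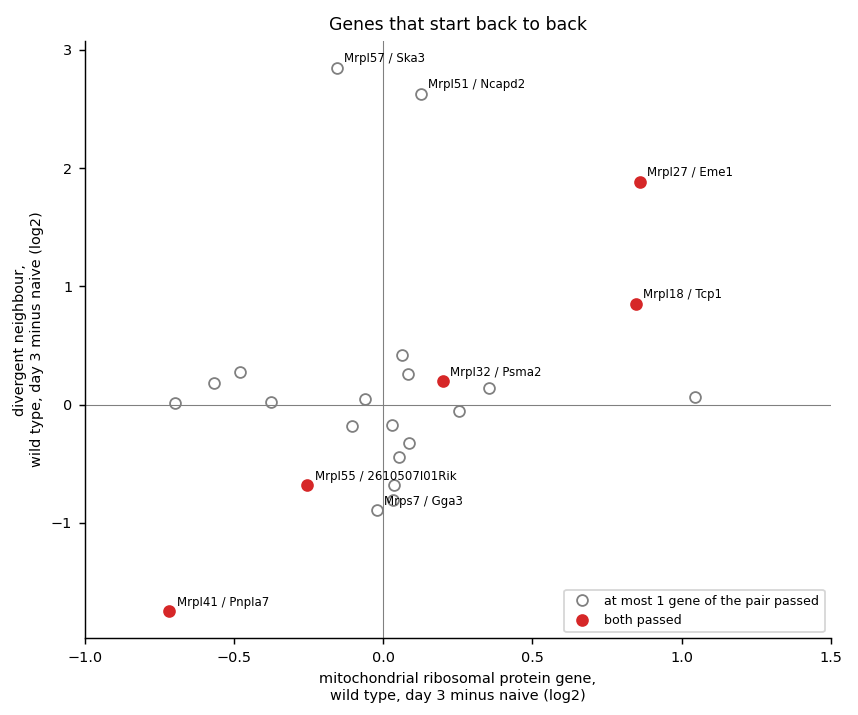
Wild-type difference between day 3 and naive cells (log2) of a mitochondrial ribosomal protein gene (x axis) and of the gene that starts next to it on the other strand (y axis), for 24 pairs; filled red points are the 5 pairs in which both genes passed. These 5 lie in the lower left or upper right quadrant, with Mrpl32 and Psma2 near the origin at 0.20 and 0.20. Ska3 and Ncapd2 lie high above genes that did not pass.

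The sequences between the starts of 4 pairs are shown because they are the whole of the stretch that both genes start from. They are given 5′ to 3′ along the first gene of each pair, from RefSeq for GRCm38.p6, with capitals for matches to the NRF1 motif, CCAAT or the GC box on either strand.
Mrpl18 and Tcp1 (chr17:12916092-12916328, - strand): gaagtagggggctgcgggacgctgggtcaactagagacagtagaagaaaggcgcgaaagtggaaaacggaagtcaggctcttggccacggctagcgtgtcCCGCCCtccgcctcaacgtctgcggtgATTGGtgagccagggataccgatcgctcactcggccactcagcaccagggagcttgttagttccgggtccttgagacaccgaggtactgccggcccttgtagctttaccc
Mrpl32 and Psma2 (chr13:14613038-14613241, - strand): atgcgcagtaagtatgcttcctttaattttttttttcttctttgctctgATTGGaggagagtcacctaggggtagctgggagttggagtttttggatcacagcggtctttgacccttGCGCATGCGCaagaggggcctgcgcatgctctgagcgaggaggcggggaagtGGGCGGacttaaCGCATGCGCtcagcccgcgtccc
Mrpl27 and Eme1 (chr11:94653744-94653790, + strand): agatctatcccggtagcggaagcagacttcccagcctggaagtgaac
Mrpl46 and Mrps11 (chr7:78783090-78783130, - strand): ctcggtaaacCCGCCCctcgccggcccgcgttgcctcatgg
The stretch between Mrpl18 and Tcp1 holds 1 CCAAT and 1 GC box match. That between Mrpl32 and Psma2 holds 3 NRF1 matches, of which 2 overlap as nearly the same letters read on both strands, with 1 CCAAT and 1 GC box match. The stretch between Mrpl46 and Mrps11 holds 1 GC box match, and none of the searched motifs was found between Mrpl27 and Eme1. The 250 bases before Mrpl27 do hold 1 ETS match, which lies just outside this stretch. Those before Mrpl18 also hold 1 ETS match, which the end of the printed stretch cuts through.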

How the data were processed

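RNA of the 13 samples was hybridised to oligonucleotide arrays. The deposited values are probe set intensities on a linear scale, made with the RMA method per the submitters' processing notes, with no version or genome build given in the sources used here. They were converted to log2 and not normalised again. Gene names came from the platform annotation. Of 45101 probe sets 34945 non-control sets name 1 gene, and the set with the highest mean represented each of the 18193 genes. All arrays entered 1 linear model with 4 group means (R 4.3.3, limma 3.58.1, lmFit and eBayes, 9 residual and 3.70 prior degrees of freedom), with Benjamini-Hochberg adjustment over all genes of each of 5 contrasts. Precision is limited by the number of arrays. The analysis was tested on simulated data.

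Named genes are the 6 largest increases and decreases that passed without overlap of the groups in each contrast, the 3 largest of either sign in the genotype contrasts and the interaction, the 5 stimulation differences nearest to 0, genes that passed against the larger number, the S18 relatives, genes whose probe sets disagree and the 2 largest changes of each sign in each list. Single genes beyond this rule were chosen after their values were seen. Members and lists were chosen with earlier results of these data known. Alternatives were another quantile normalisation, centring on array medians, removal of dim probe sets, averaging of probe sets, an intensity trend, array weights, a replicate block, the compared groups alone and leaving out each array. Whether the replicate numbers of the titles pair the arrays is not stated, and the main model used no pairing. Correlations of same-numbered deviations from the group means lay between -0.258 and 0.0495. With so few arrays in a group they cannot decide the question.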

Additional observations from a re-analysis of the deposited data

Results flagged for a closer look

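Among 140 groups of 4 arrays tested, 9 held an array that stood apart from the other 3, where chance alone gives about 1 in 20. Of the 9, 7 lay in wild-type and 2 in BATF-/- day 3 arrays. Mrpl45 was 10.21 in wild-type day 3 replicate 4, beside 10.30 to 10.32 in the others. In the same array Mrpl37 was 7.756 beside 7.869 to 7.873, Mrps18a was 8.688 beside 8.87 to 8.887, and Yars2 was 7.119 beside 7.242 to 7.26. Mrpl17 was 9.487 in wild-type day 3 replicate 1, beside 9.575 to 9.591 in the others. In wild-type day 3 replicate 2, Mrps2 was 7.811 beside 7.766 to 7.773, and Rpl39l was 5.383 beside 5.71 to 5.756. Mrpl24 was 10.86 in BATF-/- day 3 replicate 1, beside 10.78 to 10.79. Guf1 was 5.995 in BATF-/- day 3 replicate 3, beside 5.977 in each of the other arrays.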

How the results depend on the processing

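The number of genes that passed with stimulation, in either direction, held within 1.5 times under all alternatives, but in wild type the increases went from 28 to 18 without naive replicate 1. The count between genotypes at day 3 held less well. That count, 1 in the main setting, was 2 without the dim 40% of probe sets, 3 with an intensity trend, 3 with the compared groups alone and 12 with array quality weights, where 2.66%, 1.9%, 3.79% and 7.18% of all genes passed, beside 1.37%. It was 0 with averaged probe sets and 0 with the replicate block. Leaving out each array in turn gave 0 to 4, with 4 without BATF-/- naive replicate 1, where 3.09% of all genes passed. The interaction count was 0 but 2 with array quality weights, where 2.98% of all genes passed, beside 0.649%. It was 0 to 2 without single arrays, with 2 without BATF-/- naive replicate 1, where 1.48% of all genes passed. With the replicate block the stimulation counts were 43 in wild type and 49 in BATF-/- cells, beside 46 and 51, and the naive and interaction counts stayed at 0. Only 1 of 8 day 3 arrays correlated best with its own number. Leaving out each array gave 35 to 50 in wild type, lowest without wild-type naive replicate 1, 49 to 52 in BATF-/- cells, and 0 in naive cells.

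The median of the BATF-/- stimulation differences was 0.0641 with averaged probe sets, beside 0.145. Without single arrays the medians lay between 0.0867 and 0.107 at day 3, -0.061 and 0.0468 in naive cells, 0.0356 and 0.118 for stimulation in wild type, 0.12 and 0.16 in BATF-/- cells, and 0.0488 and 0.156 for the interaction. Averaged probe sets reversed 5 values that passed in the main setting or with the averages. In wild type Mrps23 became -0.0294, Mrpl15 -0.110 and Guf1 -0.105, and in BATF-/- cells Guf1 became -0.115 and Mrps14 -0.195. The cause was not tested. Of 7176 values of named genes under the alternatives, 66 newly passed, 71 no longer passed and 5 reversed. The other 7034 kept their side of the threshold. These include values that changed sign without passing in either setting, which were not counted as reversed.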
